A study of Chlorocebus sabaeus with 10 samples.

Results

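The members described here are 9 mature miRNAs of the miR-23, miR-27 and miR-24 clusters, taken by name from the deposited count table, in which they fill 10 of 2948 rows. The table holds 2588 mature miRNA names in all. The names are hsa-miR-23a-3p, hsa-miR-23b-3p, hsa-miR-27a-3p, hsa-miR-27b-3p, hsa-miR-27a-5p, hsa-miR-27b-5p, hsa-miR-24-3p, hsa-miR-24-1-5p and hsa-miR-24-2-5p, and the human prefix of the table is dropped below. They were measured by small RNA sequencing of livers from 10 age-matched female vervet monkeys (*Chlorocebus sabaeus*), 5 fed a high fructose (HFr) diet and 5 fed chow, all of which ate chow before the study. No genotype or further treatment is given for either diet group.

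The table's libraries are numbered in a way that no sample label explains, and none of them was assigned to an animal or a diet. Each value below is therefore a read count summed over the libraries by the authors, with HFr and chow livers together. It has no replicates, no SD and no test of diet. One of the 10 libraries was seen on inspection to be nearly empty. The intervals are for 95% confidence and cover counting error only, since PCR reads without molecular identifiers are not independent molecules. The pooled reads came to 2043164 when each name was counted at its precursor with the most reads. The tissue label was checked against its markers. miR-122-5p, the defining miRNA of hepatocytes, made up 45.2% of the reads, and the other hepatocyte markers miR-148a-3p and miR-192-5p had 27892 and 17980. Of 4 markers of other tissues, 3 had reads, together 402: the muscle miRNAs miR-1-3p (284) and miR-133a-3p (16) and the neural miR-9-5p (102). The neuronal miR-124-3p had 0 reads, with an exact Poisson upper limit of 3.69 reads and a Wilson upper limit of 0.000188% of the pool.

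miR-23, miR-27 and miR-24 are made from hairpins that lie side by side and are transcribed together. Mammals carry these hairpins in a pair of clusters. In humans the a cluster holds mir-23a, mir-27a and mir-24-2, and the b cluster, which lies within the AOPEP gene, holds mir-23b, mir-27b and mir-24-1. Processing of a hairpin releases a 5p and a 3p strand, either of which can become the mature miRNA. The a and b forms of miR-23-3p and of miR-27-3p are nearly identical, and both miR-24 hairpins give the same miR-24-3p. The miR-27 miRNAs are known to repress genes of lipid metabolism, among them PPARG, RXRA and, in human cells, ABCA1. miR-23 is known to repress glutaminase, and miR-24 is known for its action on cell cycle genes. The clusters are also known from endothelial cells and from the control of TGF-beta signaling.

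All 9 members had reads, against 26.3% of all names. At least 100 reads were found for 6 members, against 7.88% of all names. Together the members had 16102 reads, or 0.788% of the pool (Wilson interval 0.776 to 0.800%). The counts ranged from 4 for miR-27a-5p to 8151 for miR-24-3p. Nearly all of these reads lay on 3p arms: the 5 members from 3p arms had 15876 reads, or 98.6% of the members' total, and the 4 from 5p arms had 226.

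miR-24-3p, the product that both clusters share, was the most abundant member, with 8151 reads (exact Poisson interval 7975 to 8330) and 0.399% of the pool. It stood in place 27 among the 680 names with reads, between miR-181a-5p (8413 reads) and miR-30e-5p (8078 reads). It held 50.6% of the members' reads (Wilson interval 49.8 to 51.4%), so that its count and the sum of the other 8 members could not be told apart at this depth (ratio 1.03, exact binomial interval 0.994 to 1.06).

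miR-27b-3p, a miRNA known to act on lipid genes in liver, followed with 6527 reads (interval 6370 to 6687), or 0.319% of the pool. It held place 31, between miR-320a (6837 reads) and let-7i-5p (6280 reads). miR-24-3p had 1.25 times its reads (interval 1.21 to 1.29). These 2 members stood far above the rest. The count then dropped to 661 for miR-23b-3p (interval 612 to 713), in place 101, and to 425 for miR-27a-3p (interval 386 to 467), in place 120. miR-23b-3p exceeded miR-27a-3p by 1.56-fold (interval 1.37 to 1.76). In the order of all names miR-23b-3p lay between miR-144-5p (664 reads) and miR-497-5p (651 reads), and miR-27a-3p lay between miR-409-3p (445 reads) and miR-664a-3p (424 reads).

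The remaining members were of low abundance. miR-27b-5p had 115 reads (interval 94.9 to 138) and miR-23a-3p had 112 (interval 92.2 to 135), and these neighbours in the order did not differ beyond counting error. The name just above them was miR-335-3p (116 reads), and miR-503-5p had the same count as miR-23a-3p. miR-24-2-5p had 68 reads (interval 52.8 to 86.2) and miR-24-1-5p had 39 (interval 27.7 to 53.3). miR-27a-5p rested on 4 reads (interval 1.09 to 10.2). For comparison, the median count over all names with reads was 16.

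**Figure D1:**
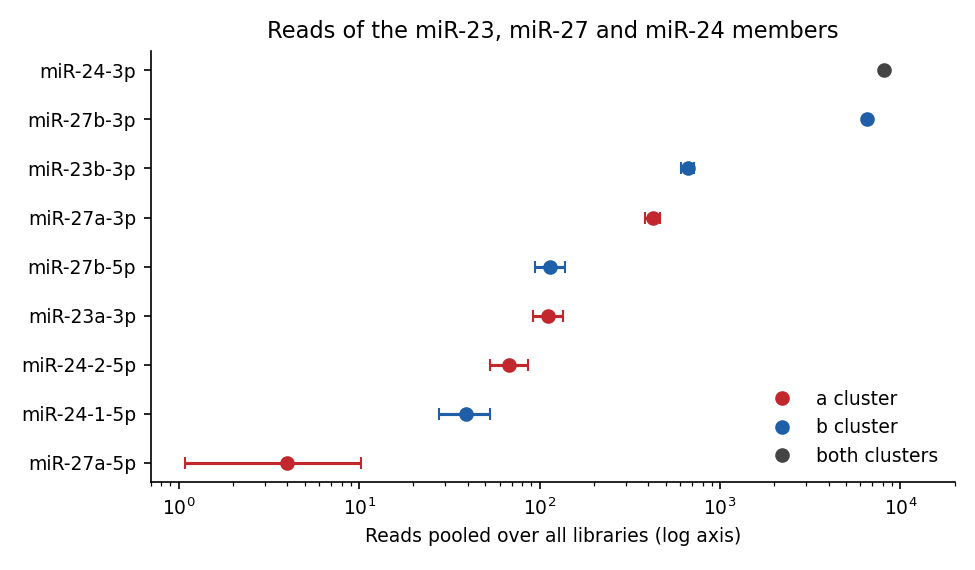
Pooled reads of the 9 members on a log axis, with exact Poisson intervals as bars. Points are coloured by cluster. miR-24-3p (8151 reads) and miR-27b-3p (6527 reads) stand apart from the other members, which have 4 to 661 reads.

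To compare the clusters, members that belong to only 1 of them were added, which leaves out miR-24-3p. The b cluster then had 7342 reads (miR-23b-3p, miR-27b-3p, miR-27b-5p and miR-24-1-5p) and the a cluster 609 (miR-23a-3p, miR-27a-3p, miR-27a-5p and miR-24-2-5p). The b cluster exceeded the a cluster by 12.1-fold (exact binomial interval 11.1 to 13.1) and held 92.3% of these reads. A read that fits both the a and the b form may be counted under each name. The ratio and its interval do not correct for this. Vervet reads were counted under human names, and whether the a and b forms were matched equally well was not tested. Most of the excess lay in 1 miRNA, since miR-27b-3p made up 88.9% of the b cluster sum. In the a cluster miR-27a-3p made up 69.8% (Wilson interval 66.0 to 73.3%).

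The excess of b over a differed between the miRNAs of the clusters. miR-27b-3p exceeded miR-27a-3p by 15.4-fold (interval 13.9 to 17.0), whereas miR-23b-3p exceeded miR-23a-3p by 5.90-fold (interval 4.82 to 7.28). The former ratio was 2.60 times the latter (conditional exact interval 2.06 to 3.26). These ratios too are not corrected for reads that fit both forms. On the 5p arm miR-27b-5p exceeded miR-27a-5p by 28.8-fold, but with 4 reads in the denominator the interval ran from 10.9 to 107.

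The 5p arms of miR-24 went the other way. These arms, unlike miR-24-3p, tell the mir-24 hairpins apart. miR-24-2-5p of the a cluster had 1.74 times as many reads as miR-24-1-5p of the b cluster (interval 1.16 to 2.66), or 63.6% of the reads of both (Wilson interval 54.1 to 72.1%). miR-24-2-5p was 11.2% of the a cluster sum, while miR-24-1-5p was 0.531% of the b cluster sum.

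The source of the miR-24-3p reads therefore decides how the whole clusters compare. The table lists miR-24-3p with 8151 reads on mir-24-1 and 8012 on mir-24-2. The rows differ by 139 reads, or 1.71% of the larger. Such near-equal rows were common: of 28 names with at least 100 reads and several precursors, 78.6% had rows within 5% of each other. Near-equal rows do not tell how many molecules came from each hairpin. Dividing the 8151 reads by the ratio of the 5p arms gave 5180 reads to the a cluster and 2971 to the b cluster, and the b cluster sum then exceeded the a cluster sum by 1.78-fold. An equal division gave 2.44-fold. With all of miR-24-3p given to the b cluster the ratio was 25.4, and with all of it given to the a cluster it was 0.838, the reverse direction. Both sums would be equal with 91.3% of miR-24-3p from the a cluster. A ratio between the 5p arms need not hold for the 3p arm, and this was not tested.

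Neighbours within a cluster, which share a primary transcript, had unequal counts. In the a cluster the 3p reads were 112 for miR-23a, 425 for miR-27a and 8012 for miR-24-3p at its a cluster hairpin. In the b cluster they were 661 for miR-23b, 6527 for miR-27b and 8151 for miR-24-3p at its b cluster hairpin. With miR-24-3p counted in full on both hairpins, both clusters had the fewest reads on miR-23, more on miR-27 and the most on miR-24-3p. So counted, this is also the order of the hairpins along the transcript in humans, and a link between the orders was not tested. miR-27a-3p exceeded miR-23a-3p by 3.79-fold (interval 3.07 to 4.72), and miR-27b-3p exceeded miR-23b-3p by 9.87-fold (interval 9.11 to 10.7). The step from miR-27 to miR-24-3p depended on how miR-24-3p was divided. In the b cluster, miR-24-3p had fewer reads than miR-27b-3p (6527) with the division by the 5p arms (2971) and with an equal division (4076). In the a cluster it stayed above miR-27a-3p (425) with both divisions (5180 and 4076). With all of miR-24-3p given to the b cluster, none was left for the a cluster.

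**Figure D2:**
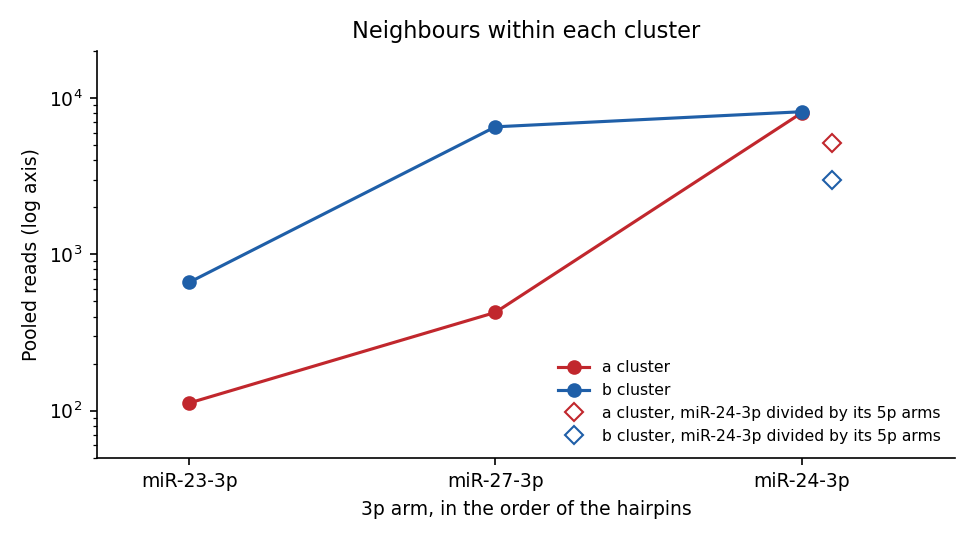
Pooled reads (log axis) of the 3p arms of each cluster, in the order miR-23, miR-27, miR-24. Filled points are the counts of the table, in which miR-24-3p has nearly the same count on both hairpins (8012 and 8151), and open diamonds are miR-24-3p divided by the ratio of its 5p arms (5180 and 2971).

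Added over both clusters, miR-27-3p had 6952 reads and miR-23-3p 773, a ratio of 8.99 (interval 8.35 to 9.70). miR-24-3p exceeded the miR-27-3p sum by 1.17-fold (interval 1.14 to 1.21) and the miR-23-3p sum by 10.5-fold (interval 9.79 to 11.4). A read that fits both the a and the b form may be counted under each name, which these sums do not correct. The ligation of adapters differs between miRNAs, so ratios between families describe reads and not molecules.

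The spread within these clusters was set beside that of other clusters. The comparison used a list of 38 clusters known from the human genome. This list was a selection, and clusters outside it, such as that of mir-379 and mir-411, were not counted. On their most abundant hairpin, 35 of the 38 had at least 100 reads. Of these 35, 11 held 3 or more hairpins, as the a and b clusters do, and the others held fewer. The highest hairpin exceeded the lowest by 71.5-fold in the a cluster and by 12.3-fold in the b cluster, with miR-24-3p counted in full on both hairpins. With miR-24-3p divided by the 5p arms these values were 46.3 and 9.87, and with an equal division 36.4 and 9.87, so that the b cluster fell below 10-fold. Shared miRNAs of the other clusters were likewise counted in full. So counted, a spread above 10-fold was found in 54.3% of the clusters, and the median was 10.9-fold. In order of spread the a cluster was number 7 and the b cluster number 17. A cluster with more hairpins can reach a larger spread by their number alone. Clusters of equal hairpin number were not compared apart. The clusters nearest to the a cluster were those of mir-301b and mir-130b (78.5-fold, interval 21.4 to 654, with 2 reads on mir-301b), mir-100 to mir-125b-1 (80.0-fold), mir-183 to mir-182 (at least 46.3-fold, against a floor of 3 reads), mir-17 to mir-92a-1 (41.6-fold), and mir-143 and mir-145 (151-fold). Nearest to the b cluster were those of mir-424 and mir-503 (10.9-fold), mir-99b to mir-125a (10.6-fold), mir-99a to mir-125b-2 (14.8-fold), mir-15a and mir-16-1 (19.0-fold), and mir-15b and mir-16-2 (20.5-fold). Unequal neighbours were thus usual among the listed clusters, and many of these clusters also share a mature miRNA with another cluster.

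The a to b differences were likewise set beside other names that differ only in the letter a or b. Where both arms paired, only the arm with more reads was kept. Left out in this way were, for example, miR-27-5p and miR-193-3p, with b higher, and let-7-3p and miR-30-3p, with a higher. The counts below depend on this choice. There were 32 such pairs with at least 100 reads over both names. In 75% of them the names differed by more than 2-fold, and the median difference was 5.73-fold. The size of the difference in miR-23-3p (5.90-fold) lay near that median, and that in miR-27-3p (15.4-fold) lay above it, between the quartiles of 3.09-fold and 117-fold. The direction was less usual. The b name was more than 2-fold above the a name in 18.8% of the pairs, that is in 6 of 32, and miR-23-3p and miR-27-3p were among them. It was so in 4 of the other 30 pairs. Over any difference, b was higher in 9 pairs and a in 20. The other 3 pairs, miR-199-3p, miR-365-3p and miR-517-3p, had the same count under both names. These pairs stay among the 32 in all shares given here. The letters are names only and carry no shared biology.

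Pairs with a difference like that of miR-23-3p were miR-181-5p (5.56-fold, a higher), miR-19-3p (5.52-fold, b higher), miR-30-5p (4.85-fold, a higher), miR-193-5p (4.61-fold, a higher) and miR-99-5p (4.04-fold, a higher). Leaving out miR-23-3p, those nearest to miR-27-3p were miR-148-3p (21.6-fold), miR-10-5p (9.89-fold), miR-29-3p (26.8-fold), miR-499-5p (at least 39.7-fold) and miR-181-5p (5.56-fold), and in these 5 pairs a was higher. miR-27-3p and miR-23-3p also stand together in that they come from the same clusters, so they are not independent pairs.

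**Figure D3:**
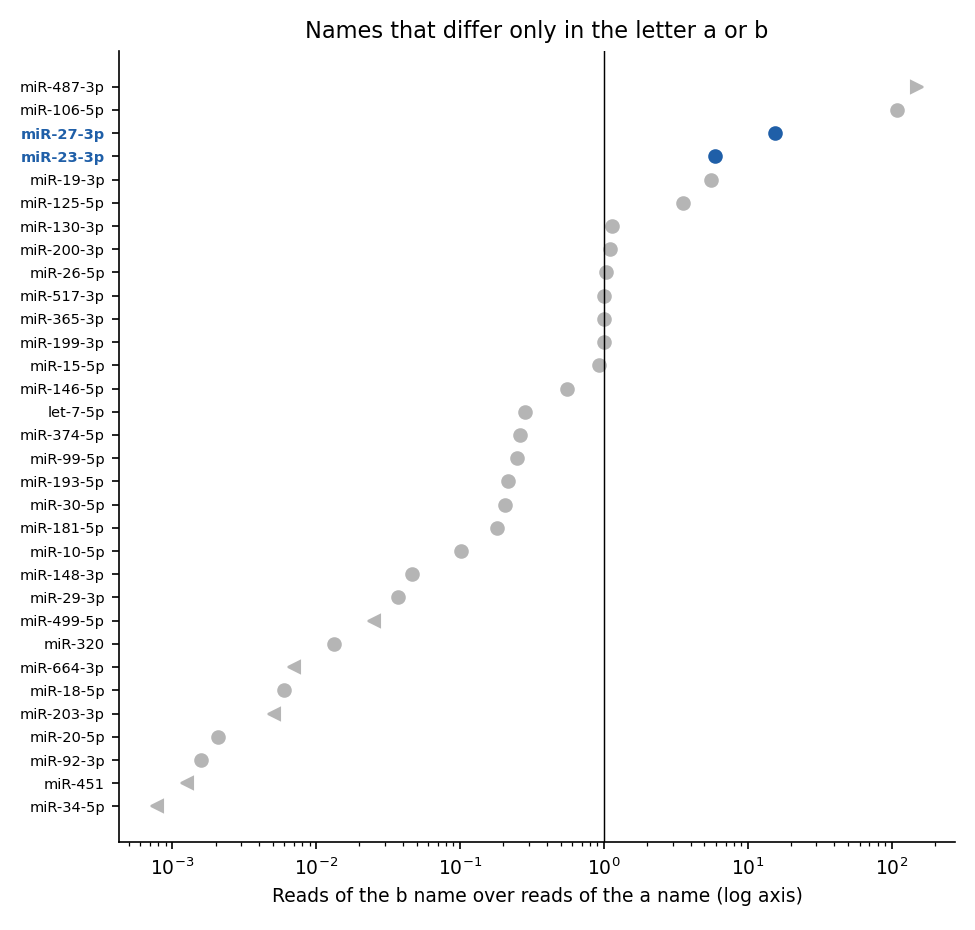
Reads of the b name divided by reads of the a name (log axis) for the 32 pairs with at least 100 reads, with 1 as the vertical line. Where both arms paired, only the arm with more reads is shown. Triangles are bounds for pairs with a name at 0 reads, set at the floor of 3 reads. miR-27-3p (15.4) and miR-23-3p (5.90), in blue, lie on the right with the few other pairs in which b was higher.

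The hairpin arms were then compared. In all 6 hairpins the 3p arm prevailed and held at least 95% of the reads. The background was 172 hairpins for which the table names both arms and lists 100 reads or more. The 3p arm was the larger in 41.9% of them, and the larger arm held at least 95% in 69.8%. The share of the 5p arm was 1.73% in mir-27b (115 of 6642 reads, Wilson interval 1.44 to 2.07%) and 0.932% in mir-27a (4 of 429 reads, interval 0.363 to 2.37%). The ratio of 5p to 3p reads was 1.87 times as high in mir-27b as in mir-27a, with an interval from 0.706 to 7.02, so that a difference in arm use was not detectable at this depth. For mir-23 the arms not among the members were used. miR-23a-5p had 1 read and miR-23b-5p had 4, which gave 5p shares of 0.885% (interval 0.156 to 4.84%) and 0.602% (interval 0.234 to 1.54%).

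The 5p share was 0.476% in mir-24-1 (interval 0.349 to 0.650%) and 0.842% in mir-24-2 (interval 0.664 to 1.07%). In both hairpins the denominator is nearly the same set of 3p reads, so the true share of each can be higher. With the 3p reads divided equally the share was 0.948% in mir-24-1 (interval 0.694 to 1.29%) and 1.64% in mir-24-2 (interval 1.30 to 2.07%). The intervals of mir-23a, of mir-27a and of mir-24-2 so divided include the 1.73% of mir-27b, and the order of these 4 hairpins was not resolved.

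**Figure D4:**
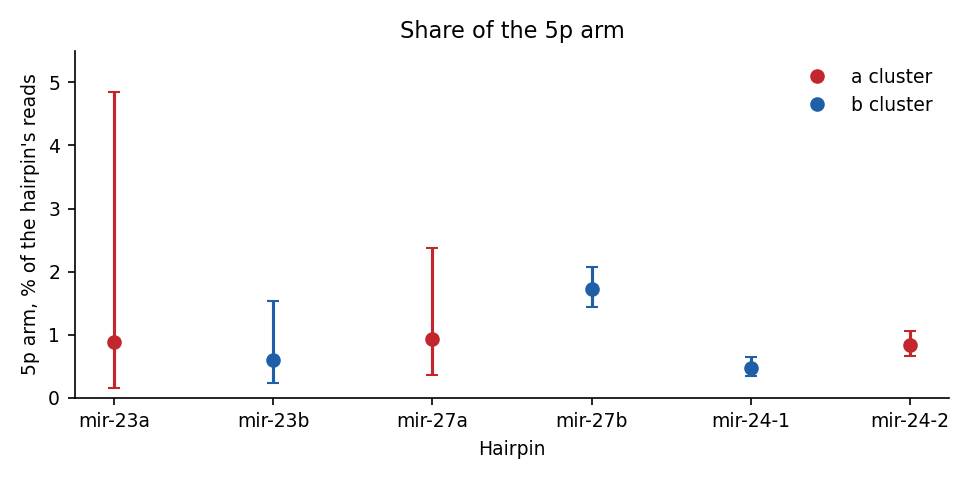
Share of the 5p arm among the reads of each hairpin, in percent, with Wilson intervals as bars. The shares lie between 0.476% (mir-24-1) and 1.73% (mir-27b), and the intervals of mir-23a and mir-27a are wide because their 5p arms had 1 and 4 reads.

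Of 8 names related to the members by sequence or position, 5 had reads. miR-23c, a relative of miR-23, had 1 read. miR-128-3p, known to share part of its target sites with miR-27, was the most abundant of them, with 219 reads at its larger precursor row and 178 at the other. This was more than 5 of the 9 members had. miR-27b-3p exceeded it by 29.8-fold (interval 26.0 to 34.3) and miR-27a-3p by 1.94-fold (interval 1.64 to 2.29). The 5p arms miR-128-1-5p and miR-128-2-5p had 4 and 0 reads. miR-3074-5p and miR-3074-3p, which lie opposite mir-24-1 on the other strand in humans, had 0 reads each (exact Poisson upper limit 3.69 reads).

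miR-23, miR-27 and miR-24 are known from many cell types, and the pool held miRNAs of other liver cells as well. The endothelial markers miR-126-3p (20344 reads), miR-126-5p (2193 reads) and miR-139-5p (202 reads) all had reads and together held 1.11% of the pool. The 3 stellate and smooth muscle markers held 2.12%. Nearly all of this was miR-143-3p (42313 reads), and miR-214-3p (711 reads) and miR-145-5p (280 reads) were far lower. The 3 erythroid markers held 0.532%, most of it from miR-486-5p (8488 reads), with 2366 reads for miR-451a and 13 for miR-144-3p. The 4 leukocyte markers held 0.132% and the 3 biliary markers 0.0868%. Within a pool that cannot be split by animal, the part of these cells in the reads of miR-23, miR-27 and miR-24 was not tested.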

How the data were processed

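Liver RNA of the HFr and chow animals was made into Illumina TruSeq small RNA libraries, sequenced on a GAIIx instrument, and quantified by the authors with miRDeep2. Their processing notes to GEO also name Bowtie and cutadapt 1.10. For the genome build, the mismatch setting and the miRNA release, nothing is given in the sources used here. The authors deposited raw counts per mature miRNA and precursor under human names. The total column over all libraries was used, in which deeper libraries weigh more. A further 20 columns of per-library values match no sample label and were not used. That the libraries are the labelled animals was assumed.

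For each name the precursor row with the most reads was kept. A read that fits both the a and the b form, or both mir-24 hairpins, cannot be assigned, which limits their ratios.

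Intervals were Wilson for shares, exact Poisson for counts, exact binomial for ratios and conditional exact for ratios of ratios. Only the exact Poisson and exact binomial intervals were run on simulated data. The simulated counts were independent Poisson draws, so this checked the computation and not whether counting error describes the reads. No test was run, because no library has a known diet. The members, cluster list and related names were chosen with earlier results of these data known. Named were all members, their other arms and relatives, rank neighbours, cell type markers, and the 5 nearest pairs and clusters by fold. The vervet gene table (mChlSab1.0.hap1) lists 0 miRNA genes, so no positions are given. Python 3.11.15, scipy 1.17.1, pandas 2.3.3 and matplotlib 3.10.9 were used.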

Additional observations from a re-analysis of the deposited data

How the results depend on the processing

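The b over a ratio of 12.1 moved to 1.78 with miR-24-3p divided by the 5p arms, to 2.44 with an equal division. It was 13.4 with the 3p arms of miR-23 and miR-27 alone, which leaves out the 5p arms. In an alternative chosen after seeing the data, all miR-24-3p reads were given to the b or to the a cluster, with ratios of 25.4 and 0.838. Dividing miR-24-3p by the 5p arms or equally, also chosen after seeing the data, took the spread within the a cluster from 71.5-fold to 46.3-fold and 36.4-fold, and that within the b cluster from 12.3-fold to 9.87-fold in both cases. Adding miR-23a-5p and miR-23b-5p left the ratio within its interval. Adding the precursor rows raised miR-24-3p to 16163 reads, its ratio to miR-27b-3p to 2.48 and that to miR-27a-3p to 38.0, and the share of all members from 0.788% to 0.903%. Without miR-122-5p in the total that share was 1.44%. The number of names detected fell from 680 to 403 at 10 reads and 204 at 100 reads. With at least 1000 reads per hairpin, 79.3% of hairpins had a larger arm of at least 95%. The other backgrounds moved less. With at least 1000 reads, 77.3% of the pairs named a and b differed by more than 2-fold, against 75%. A spread above 10-fold was found in 56.7% of the listed clusters with at least 1000 reads and in 51.4% with the arms added, against 54.3%. No paired analysis was possible because no column of the table could be tied to an animal, and leaving out each library was not run because columns that match no sample label were kept out of every computation.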
